A study of Mus musculus with 4 samples.

Results

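Fabp6 enterocytes, the absorptive cells of the small intestine that carry the ileal bile acid binding protein, were chosen by their transcripts. A barcode was taken with at least 500 unique molecular identifiers (UMIs, each marking 1 captured transcript), at least 250 genes and at most 25% mitochondrial UMIs. Fabp6 had to make up at least 0.3% of its UMIs, and Fabp1 and Fabp2, the fatty acid binding proteins of all enterocytes, at least 0.5% together. Barcodes with Muc2 at 0.2% or more, with 5 or more UMIs of Mki67 and Top2a or of Chga and Chgb, or with any Ptprc were left out as goblet, dividing, hormone or immune cells. This gave 605 cells, of 25788 barcodes past the quality limits and 44277 in all. The 18726 cells that passed the same limits with Fabp6 under 0.3% are called other enterocytes.

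The cells came from the epithelial layer of jejunum and ileum, freed of Peyer's patches, of C57BL/6J males. All mice received both a high-fat diet (HFD) and l-NAME, which blocks nitric oxide synthases, for 7 weeks from the age of 8 weeks, up to 15 weeks. The labels name 2 groups, each of 2 samples that pooled 2 mice: one with 562.5 mg/kg of IPA (a bacterial product of tryptophan) in the diet, and a control without it. No mice on a standard diet are among the samples. The deposited matrix tells 4 libraries apart by a number on the barcode, and the labels do not say which sample each number stands for. Libraries therefore carry no diet here, and IPA was not compared with control. A difference between libraries is one between pools, in which diet, mouse and preparation cannot be told apart.

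In the lower small intestine, bile acids are taken back from the gut lumen by the sodium-coupled transporter Slc10a2, carried through the cell by Fabp6, and released to the portal blood by the paired transporter Slc51a and Slc51b. Bile acids bind the nuclear receptor FXR (Nr1h4), which raises transcription of Fabp6, Slc51a, Slc51b and the hormone Fgf15. Fgf15 travels to the liver and lowers bile acid synthesis there. In the mm10 build Fabp6 lies at chr11:43596040-43601562, Slc10a2 at chr8:5083219-5105287, Slc51b at chr9:65412753-65422773 and Fgf15 at chr7:144896532-144900953. FXR with its partner RXR binds an inverted repeat of AGGTCA with 1 base between its arms.

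The 250 bases before the RefSeq start of Fabp6 are shown because the cells were chosen by this gene. They lie at chr11:43601563-43601812 of GRCm38.p6, minus strand, outside the annotated transcript, and capitals mark matches to that repeat.

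Fabp6: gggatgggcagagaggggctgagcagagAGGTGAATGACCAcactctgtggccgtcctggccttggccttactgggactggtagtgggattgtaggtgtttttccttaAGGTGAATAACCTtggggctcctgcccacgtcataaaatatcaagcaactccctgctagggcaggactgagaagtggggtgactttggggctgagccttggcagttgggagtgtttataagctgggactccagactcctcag

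The window held 2 matches to AGGTCA, any 1 base and TGACCT, each with 2 mismatches, at 222 to 210 and at 142 to 130 bases before the start. Such a match, on either strand and with at most 2 mismatches, was found in 0.959% of 32851 promoter windows of the same length. The windows of Slc10a2, Slc51a and Slc51b held none, which says only that these letters are not in those 250 bases. Of 20 genes looked up, 16 had a window in the RefSeq table.

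Fabp6 enterocytes numbered 88, 230, 143 and 144 in libraries 1, 2, 3 and 4. They were 1.83% of the enterocytes of library 1 (exact 95% interval 1.47 to 2.25), 4.19% in library 2 (3.68 to 4.76), 4.04% in library 3 (3.42 to 4.74) and 2.61% in library 4 (2.21 to 3.07). The intervals, like all given here, cover counting error only. The limit on Fabp1 and Fabp2 alone left out a further 75, 100, 34 and 26 Fabp6 barcodes of libraries 1 to 4. These shares do not count them, so the order of the libraries holds for this choosing rule only. The sources used here do not give how much jejunum and ileum each pool held, and its part in these shares was not tested.

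Depth was somewhat lower in Fabp6 enterocytes in each library. The median cell held 26607, 21140, 25827 and 22726.5 UMIs in Fabp6 enterocytes of libraries 1 to 4, against 28536, 27692, 29563 and 26143 UMIs in other enterocytes. Median mitochondrial shares ran from 9.38% to 10.3% in Fabp6 enterocytes and from 10.7% to 12.2% in other enterocytes. In all, 13842818 UMIs were summed over Fabp6 enterocytes and 478250165 over other enterocytes. A barcode sequence shared with another library was found in 5 Fabp6 enterocytes, all in library 2, and in 253 barcodes past the quality limits.

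Fabp6 itself, which defined the cells, was a median of 3.52%, 1.42%, 2.54% and 2.53% of a cell's UMIs in libraries 1 to 4. It reached 12.8% in the highest cell. Of other enterocytes, 64.4% had no Fabp6 UMI and 99.1% lay under 0.1%, while 172 lay between 0.1% and 0.3%. The 34 cells just inside the limit, at 0.3% to 0.4%, had Slc10a2 at 82.6 and Fgf15 at 49.3 CPM (a gene's UMIs as a share of the group's summed UMIs, in the usual CPM scaling). The 47 cells just outside, at 0.2% to 0.3%, had 55.6 and 44.3 CPM, so the levels near the limit were close on both sides.

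**Figure D1:**
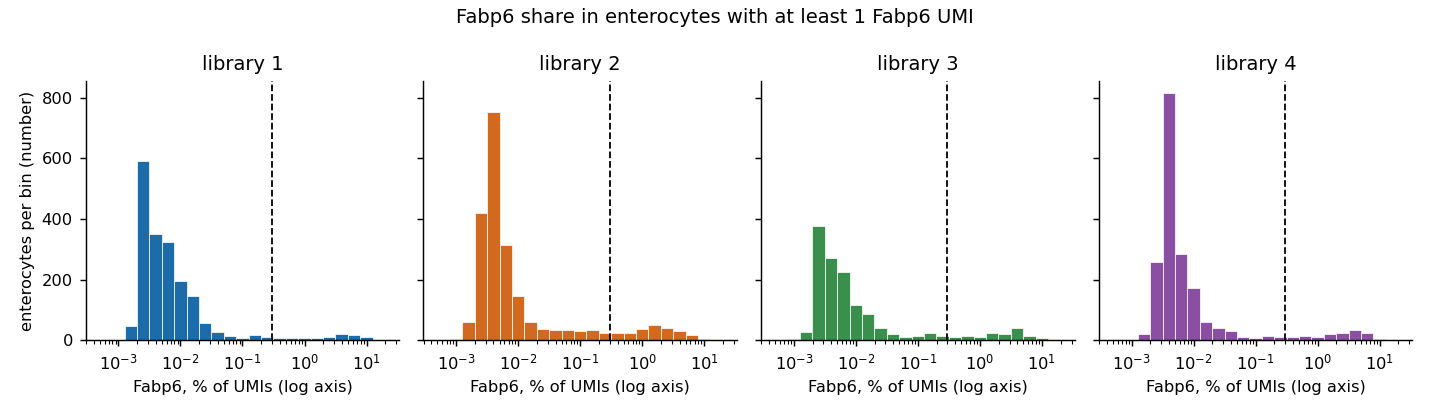
Number of enterocytes (y axis) by the Fabp6 share of their UMIs (x axis, percent, log scale) in each library, for cells with at least 1 Fabp6 UMI; the dashed line is the limit of 0.3%. Most cells lie under 0.1% and a smaller set of 605 cells spreads above the limit, up to 12.8%.

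The 3 other genes that mark ileal enterocytes were high in these cells, and the label was kept. Because Fabp6 chose the cells, differences between them and other enterocytes are descriptions, with no test. Slc10a2 was at 628, 220, 142 and 196 CPM in Fabp6 enterocytes of libraries 1 to 4, against 1.82, 2.94, 2.17 and 2.68 CPM in other enterocytes. Library 1 stood above the other 3 in Fabp6 enterocytes. A Slc10a2 UMI was found in 83.0%, 71.7%, 64.3% and 79.2% of Fabp6 enterocytes, against 3.69% to 4.60% of other enterocytes. T cell barcodes, which should lack the gene and show free RNA, had one in 0.384% of cells at a median of 3936 UMIs. This background rests on libraries 1 and 3, with 315 and 1240 T cell barcodes, since libraries 2 and 4 held 3 and 4. With every cell thinned to 2000 UMIs, which left out 35 of the 605 cells and 728 other enterocytes, the Slc10a2 shares were 30.7% in Fabp6 enterocytes and 0.528% in other enterocytes.

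Fgf15 was at 98.9, 133, 114 and 142 CPM in Fabp6 enterocytes of libraries 1 to 4, against 0.276, 1.02, 0.958 and 1.85 CPM in other enterocytes. Its transcripts were uneven among the cells. A UMI was found in 44.3%, 48.7%, 49.7% and 66.0% of Fabp6 enterocytes, against 0.403% to 1.75% of other enterocytes and 0.128% of T cell barcodes. The 10% of Fabp6 enterocytes with the most Fgf15 held 58.3%, 61.0%, 61.7% and 50.7% of its UMIs, and the highest cell had 47. For Slc10a2 the top 10% of cells held 39.6%, 54.5%, 47.8% and 34.8%, and for the more abundant Slc51b 21.3% to 27.8%.

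The basolateral exporter was present in all enterocytes and higher in those with Fabp6. Slc51a was at 1654, 1226, 1299 and 1538 CPM in Fabp6 enterocytes, against 260, 292, 239 and 294 CPM in other enterocytes, or 6.37-, 4.21-, 5.44- and 5.24-fold. Slc51b was at 1126, 776, 697 and 926 CPM in Fabp6 enterocytes, against 275, 244, 179 and 270 CPM in other enterocytes. The folds of Slc51b were 4.09, 3.18, 3.90 and 3.43. The apical and basolateral pumps Abcc2 and Abcc3 ran the other way in each library without reaching 2-fold throughout. Abcc2 was at 99.3, 112, 148 and 131 CPM in Fabp6 enterocytes against 218, 158, 305 and 234 CPM in other enterocytes.

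Of FXR and its targets, the receptor gene Nr1h4 was at 88.1, 41.9, 58.0 and 44.6 CPM in Fabp6 enterocytes, against 21.3, 27.0, 22.7 and 22.4 CPM in other enterocytes. It lay above other enterocytes in each library, and the ratio reached 2-fold in libraries 1 and 3 only. The partner Rxra was at 35.2 to 44.9 CPM against 32.4 to 44.5 CPM. Malrd1, known from mice as a regulator of Fgf15, was at 67.6 to 76.4 CPM in Fabp6 enterocytes and 29.6 to 33.5 CPM in other enterocytes. Nr0b2, which encodes the repressor SHP and is a classical FXR target in liver, lay the other way at low counts. It was at 1.87, 2.86, 2.39 and 5.18 CPM in Fabp6 enterocytes, against 19.7, 6.63, 15.5 and 22.8 CPM in other enterocytes.

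**Figure D2:**
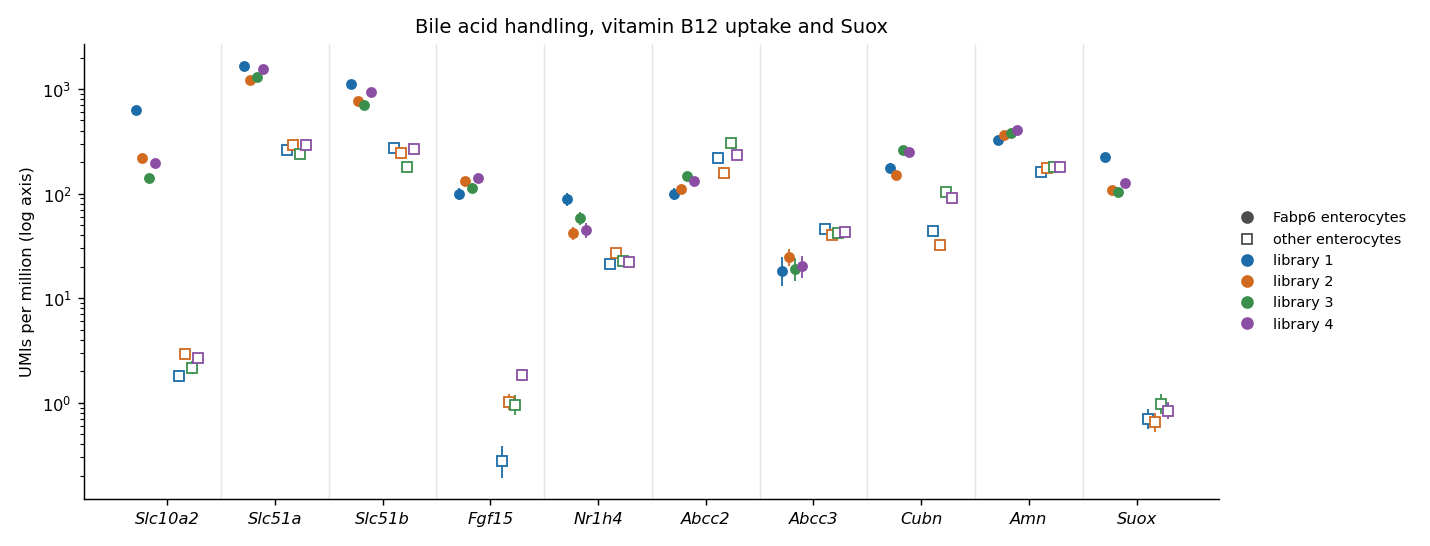
Level (y axis, CPM, log scale) of 10 genes of bile acid handling, vitamin B12 uptake and Suox in Fabp6 enterocytes (filled circles, left) and other enterocytes (open squares, right); colour is the library and bars are exact 95% Poisson intervals. Slc10a2, Fgf15 and Suox lie far apart between the groups, and Abcc2 and Abcc3 are lower in Fabp6 enterocytes of each library.

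Over the transcriptome, genes were measured where they averaged at least 10 CPM over the 8 sums, with the genes of the choosing rule left out. Of these 6464 genes, 130 (2.01%) were at least 2-fold higher in Fabp6 enterocytes in each of the 4 libraries, and 164 (2.54%) at least 2-fold lower. "Higher" and "lower" refer to this rule from here on. A gene could pass the 10 CPM minimum through its level in Fabp6 enterocytes alone. Without the fold, 1843 of the 6464 lay above other enterocytes in each library and 1873 under them, which is the background for such counts. The median log2 ratio over all measured genes was -0.06, -0.03, 0.04 and 0.05 in libraries 1 to 4.

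Among measured members of the bile acid transport list 3 of 5 were higher, and 4 of 6 in the FXR list, where the same background of 2.01% holds. The lists overlap, with Slc51b in both, so these counts are not separate. Nr0b2, which lay the other way, did not reach the CPM minimum and is not among the 6. All lists were chosen with earlier results of these data known. Counts of their members may reflect that choice and only describe the lists. For each list below the background is 2.01% higher and 2.54% lower. A single called gene in a short list is not read as a result about that list.

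The highest median ratio belonged to Suox, the mitochondrial enzyme that oxidises sulfite to sulfate. It was at 224, 108, 104 and 125 CPM in Fabp6 enterocytes of libraries 1 to 4, against 0.701, 0.656, 0.981 and 0.840 CPM in other enterocytes. On the log2(CPM + 1) scale the ratios of Suox were 7.04, 6.05, 5.73 and 6.1, with a median of 6.07, next to 5.96 for Fgf15 and 5.78 for Slc10a2. The plain CPM ratios of Suox, 319-, 165-, 106- and 149-fold, rest on levels under 1 CPM in other enterocytes. Next to these were Mgat4c, a glycosyltransferase-like gene, at 373 to 515 CPM against 11.3 to 32.6 CPM, and the secreted protease Prss23 at 58.7 to 91.8 CPM against 1.03 to 3.68 CPM. Tmigd1, an adhesion molecule of the brush border, was at 1383, 573, 454 and 615 CPM in Fabp6 enterocytes and 22.2 to 30.8 CPM in other enterocytes. Scd2, a fatty acid desaturase, was at 14.5 to 41.7 CPM against 0.417 to 1.54 CPM, and the mitochondrial carrier gene Slc25a48 at 11.5 to 59.0 CPM against 0.109 to 0.277 CPM.

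Most genes of the list for the distal small intestine were higher. Of its 41 members, all measured, 26 were higher, 0 were lower, and 38 lay above other enterocytes in each library. Of all 6464 measured genes 1843 did so. The list median was 1.45, 1.23, 1.30 and 1.27 log2 units in libraries 1 to 4. Fam151a was at 197, 287, 347 and 402 CPM in Fabp6 enterocytes against 5.38 to 19.0 CPM in other enterocytes. Plb1, a brush border phospholipase, was at 248, 434, 545 and 496 CPM against 9.44, 25.8, 26.8 and 31.8 CPM. Slc34a2, a phosphate transporter, was at 328, 228, 268 and 198 CPM against 24.4 to 50.2 CPM. The transcription factor Maf was 2.12- to 2.42-fold higher.

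Vitamin B12 bound to intrinsic factor is taken up in the ileum by the receptor cubam, made of Cubn and Amn. Cubn was at 176, 151, 260 and 250 CPM in Fabp6 enterocytes against 43.7, 32.5, 103 and 91.6 CPM in other enterocytes. Amn was at 326, 359, 382 and 402 CPM against 161, 175, 180 and 181 CPM. Both were higher, and they were the 2 higher genes of 5 measured in the B12 list of 10. Tcn2, which carries B12 onward, was at 287 to 336 CPM against 198 to 248 CPM and did not reach 2-fold. Lrp2, a partner of cubilin in kidney, had 0 UMIs in both groups.

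Genes of the list for the proximal small intestine lay the other way. Of 43 measured members 0 were higher, 13 were lower, and 41 lay under other enterocytes in each library. Of all 6464 measured genes 1873 did so. The list median was -1.35, -0.84, -1.06 and -0.99 in libraries 1 to 4. Rbp2, which binds retinol, was at 5027, 7061, 4381 and 6373 CPM in Fabp6 enterocytes against 26576, 23403, 24664 and 28197 CPM in other enterocytes. Apoa4, an apolipoprotein of chylomicrons, was at 2771, 1768, 1943 and 2653 CPM against 15650, 6976, 16299 and 14460 CPM. The glucose transporter gene Slc2a2 was at 64.2, 86.7, 89.2 and 122 CPM against 408, 244, 287 and 361 CPM. Fabp1, part of the choosing rule, was at 5344, 7840, 5230 and 7494 CPM against 38432, 36495, 33995 and 40261 CPM, whereas Fabp2 was at 26818 to 54939.7 CPM against 26706 to 33336 CPM.

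Of 17 measured regional transcription factors 1 was higher, Maf, and 1 was lower, beside 2.01% and 2.54% of all genes. Onecut2, a proximal factor, was the lower one, at 8.08 to 18.0 CPM against 80.3 to 106 CPM. Gata4, which marks the upper small intestine, was at 25.3, 25.6, 22.7 and 25 CPM in Fabp6 enterocytes against 54.5, 47.3, 51.4 and 51.5 CPM in other enterocytes. That was close to 2-fold, and library 2 fell short of it. Cdx2, the caudal factor of intestinal identity, was at 139 to 199 CPM against 106 to 123 CPM, and Hnf4a at 146 to 225 CPM against 110 to 143 CPM.

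**Figure D3:**
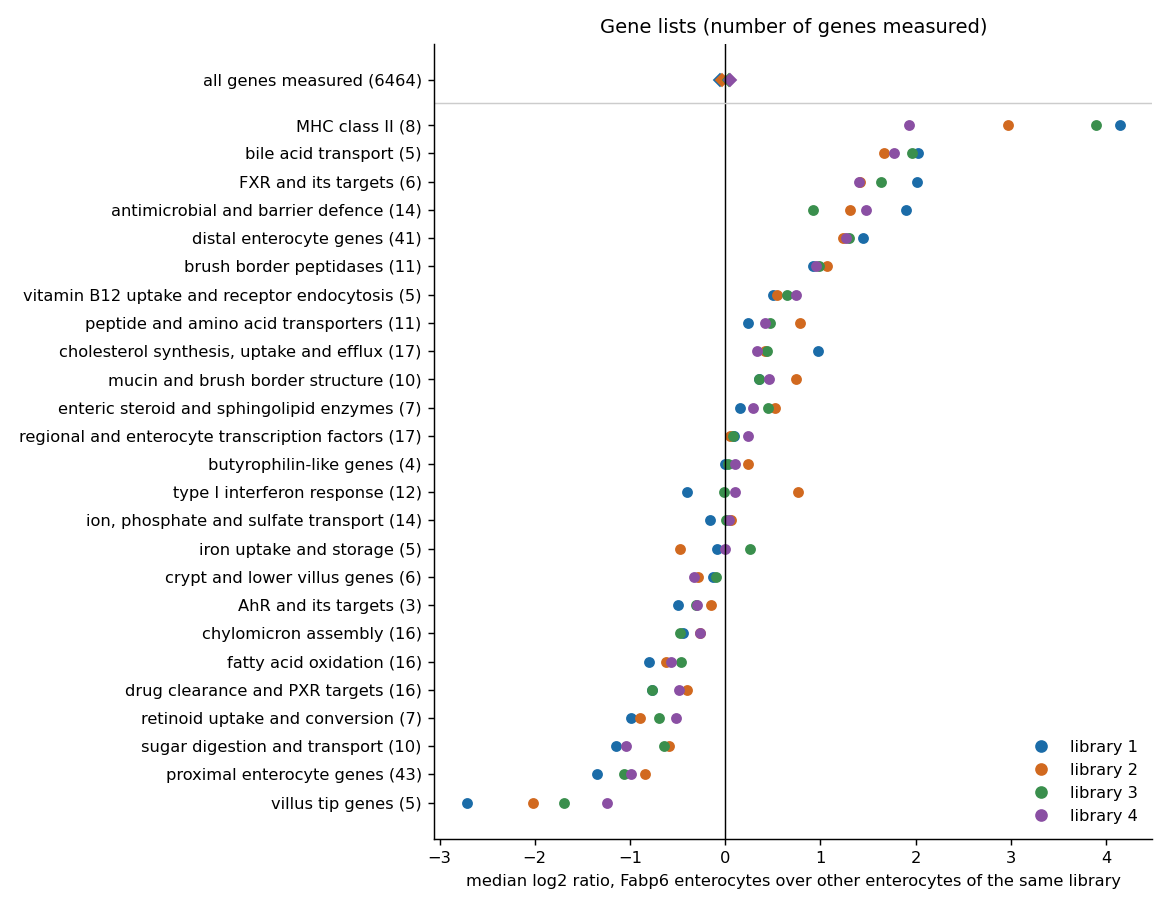
Median log2 ratio of Fabp6 enterocytes to other enterocytes of the same library (x axis) over the measured members of each gene list (rows, number measured in brackets), with the median of all 6464 measured genes at the top; colour is the library. MHC class II, bile acid transport and distal genes lie to the right and proximal and villus tip genes to the left, in each library.

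Fat handling was lower in parts. In the chylomicron list 3 of 16 measured genes were lower and 0 higher, beside 2.54% and 2.01% of all genes. The lower ones were Apoa4, Apoc2, an activator of lipoprotein lipase, at 1823, 2002, 897 and 1825 CPM against 11049, 6178, 10000.3 and 11061 CPM, and the triglyceride enzyme Dgat2. Apob, the structural protein of chylomicrons, was at 976 to 1195 CPM against 903 to 1514 CPM, and Mttp, which loads it with fat, at 834 to 902 CPM against 1438 to 1832 CPM. Of 16 genes of fatty acid oxidation 4 were lower, among them Acaa2, Acaa1b and Pdk4. Under other enterocytes in each library lay 13 of the 16, as did 1873 of all 6464 measured genes. Cyp4a10 and Acot1, enzymes of fatty acid metabolism, were among the 15 lowest ratios, with medians of -3.12 and -3.03 log2 units.

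Sterol genes lay above other enterocytes in most cases. Of 17 measured genes of cholesterol synthesis, uptake and efflux, 12 were above in each library, as were 1843 of all 6464 measured genes. Only Sqle, an early enzyme of sterol synthesis, was higher. Sqle was at 97.9, 59.1, 20.9 and 19.8 CPM in Fabp6 enterocytes against 7.46, 10.5, 3.43 and 4.44 CPM in other enterocytes. Npc1l1, which takes up cholesterol from the lumen, was at 320 to 394 CPM against 170 to 213 CPM. Insig1, a brake on sterol synthesis, was at 14.4 to 41.7 CPM against 54.4 to 88.8 CPM.

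Brush border peptidases were higher in part. Of 11 peptidase genes 5 were higher, namely Mep1a, Naaladl1, Dpep1, Xpnpep2 and Enpep, and 0 lower. Mep1a, a subunit of meprin, was at 476, 359, 395 and 478 CPM in Fabp6 enterocytes against 49.6 to 65.3 CPM in other enterocytes. Xpnpep2 was at 334, 284, 351 and 361 CPM against 29.0 to 44.0 CPM. Ace and Mme were the 2 that lay under other enterocytes in each library, Mme at 186 to 256 CPM against 459 to 629 CPM. Of 11 transporters of peptides and amino acids 2 were higher, Slc7a9 of the cystine carrier and the glutamate carrier Slc1a1, at 53.4 to 80.6 CPM against 6.82 to 13.6 CPM.

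Sugar digestion held 1 lower gene of 10 measured, Slc2a2, where 2.54% of all genes were lower. Under other enterocytes in each library lay 8 of the 10, as did 1873 of all 6464 measured genes. Lct, the lactase gene, was at 134, 202, 254 and 294 CPM in Fabp6 enterocytes against 612, 376, 662 and 678 CPM in other enterocytes. The sucrase gene Sis was at 2131 to 2304 CPM against 2305 to 2969 CPM. Guca2a, the hormone guanylin, was at 865, 829.3, 1293 and 1195 CPM in Fabp6 enterocytes against 45.6, 91.4, 99.9 and 119 CPM in other enterocytes. Its relative Guca2b, uroguanylin, was at 2212 to 3161 CPM against 2805 to 3798 CPM. The sphingomyelinase gene Enpp7 was 3.12- to 4.39-fold higher. In drug clearance, 3 of 16 measured genes were lower, Cyp3a11, Gsta1 and Gstm1, and 0 higher.

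MHC class II genes, whose products present extracellular peptides to CD4 T cells, were high in Fabp6 enterocytes. All 8 list members lay above other enterocytes in each library and 6 were higher. The list median was 4.14, 2.97, 3.90 and 1.93 log2 units. Cd74, the invariant chain, was at 3174, 3178, 3082 and 107 CPM in Fabp6 enterocytes of libraries 1 to 4, against 147, 382, 212 and 13.3 CPM in other enterocytes. The levels of libraries 1, 2 and 3 were nearly equal in Fabp6 enterocytes, and library 4 stood far under them, though still 8.06-fold over its own other enterocytes.

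H2-Aa was at 1018, 980, 849 and 13.5 CPM in Fabp6 enterocytes against 33.6, 89.1, 47.2 and 2.71 CPM in other enterocytes. H2-Ab1 was at 923, 913, 953 and 29.0 CPM against 56.9, 109, 61.3 and 8.99 CPM. Ciita, the master activator of class II transcription, was at 29.5, 26.6, 24.8 and 1.73 CPM against 1.97, 5.46, 1.68 and 0.825 CPM. Library 4 was the lowest for it too in both groups of cells, and its ratio there missed 2-fold on the log2(CPM + 1) scale.

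A Cd74 UMI was found in 95.5%, 98.7% and 97.2% of Fabp6 enterocytes of libraries 1 to 3 and in 30.6% of those of library 4. The shares in other enterocytes were 32.2%, 47.1%, 34.3% and 7.81%, and 15.4% in T cell barcodes, whose median depth was lower. Thinned to 2000 UMIs, the shares were 97.6%, 96.2%, 95.4% and 8.45% in Fabp6 enterocytes of libraries 1 to 4, against 11.4%, 21.7%, 14.3% and 2.28% in other enterocytes. T cell barcodes had 7.60%, but nearly all of them came from libraries 1 and 3. Library 4 held 4, so its own background was not measured. In library 4 the 10% of Fabp6 enterocytes with the most Cd74 held 85.8% of its UMIs, against 20.4% to 25.4% in libraries 1 to 3. Markers of cells that carry class II constitutively were counted in the same sums. The 4 myeloid markers summed to 112 to 133 CPM in Fabp6 enterocytes and 108 to 143 CPM in other enterocytes. Nearly all of that was Cst3, a protease inhibitor made by many cells, at 112 to 132 CPM against 107 to 143 CPM. Itgax of dendritic cells had 0 UMIs in Fabp6 enterocytes. The 5 markers of B and plasma cells summed to 119, 5.52, 64.3 and 7.48 CPM in Fabp6 enterocytes of libraries 1 to 4, against 811, 82.9, 364 and 5.47 CPM in other enterocytes. Most of it was the immunoglobulin gene Igkc, at 102, 4.91, 58.9 and 5.75 CPM in Fabp6 enterocytes, while the B cell gene Ms4a1 had 0 UMIs and Cd79a at most 0.598 CPM. Ptprc, the gene of all white blood cells, was 0 by the choosing rule.

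H2-Aa and H2-Eb1 are among the 6 higher class II genes, and their upstream bases are shown because they held the motif searched for. Capitals mark CTGATTGG, the Y box of class II promoters, which was searched on both strands and found in 3.83% of the 32851 windows. The window of H2-Aa is chr17:34287824-34288073 on the minus strand and that of H2-Eb1 chr17:34305617-34305866 on the plus strand, both GRCm38.p6.

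H2-Aa: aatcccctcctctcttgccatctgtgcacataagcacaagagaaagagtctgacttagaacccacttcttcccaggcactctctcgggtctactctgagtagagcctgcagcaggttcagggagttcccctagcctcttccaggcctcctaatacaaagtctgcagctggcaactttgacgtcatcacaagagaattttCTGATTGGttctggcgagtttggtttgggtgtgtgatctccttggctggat
H2-Eb1: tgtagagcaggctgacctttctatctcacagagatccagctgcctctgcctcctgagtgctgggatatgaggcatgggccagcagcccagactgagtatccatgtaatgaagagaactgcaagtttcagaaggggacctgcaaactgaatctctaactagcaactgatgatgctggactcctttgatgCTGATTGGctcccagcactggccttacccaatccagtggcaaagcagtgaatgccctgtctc

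The match lay 51 to 44 bases before the start of H2-Aa and 62 to 55 bases before that of H2-Eb1. The windows found for H2-DMa and H2-DMb1, which were higher too, held none with 0 mismatches allowed. That says only that these exact letters are not in those bases.

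Genes of the antimicrobial and barrier list were higher in part, 6 of 14 measured, with 0 lower and a list median of 1.89, 1.32, 0.92 and 1.48. Of the 14, 9 lay above and 3 under other enterocytes in each library. Reg1 and the lower Paneth markers, given further on, are not in this list. Reg3b, an antibacterial lectin, was at 54536, 58561, 9069 and 12740 CPM in Fabp6 enterocytes of libraries 1 to 4, against 9112, 22899, 892 and 1464 CPM in other enterocytes. Libraries 1 and 2 were high and libraries 3 and 4 low in both groups of cells. Reg3g was at 18417, 20115, 3270 and 3618 CPM against 2297, 5894, 287 and 487 CPM. A Reg3b UMI was found in 74.6% of the T cell barcodes of library 1 and 33.1% of those of library 3, so shares of cells with a UMI are not read for this gene.

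Nos2, the inducible nitric oxide synthase, was at 120, 76.5, 35.3 and 69.9 CPM in Fabp6 enterocytes against 2.32, 3.18, 1.06 and 4.67 CPM in other enterocytes. A Nos2 UMI was found in 75%, 63.5%, 38.5% and 62.5% of Fabp6 enterocytes, against 1.47% to 5.21% of other enterocytes and 0.192% of T cell barcodes. All mice received an inhibitor of this enzyme family, so the level without it is not known from these samples. Duox2, which makes hydrogen peroxide at the surface, was at 75.4, 24.5, 19.4 and 20.1 CPM against 3.65 to 4.99 CPM.

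Saa1, an acute phase protein that binds retinol, differed widely between libraries. It was at 830, 488, 7.48 and 13.8 CPM in Fabp6 enterocytes against 3.22, 3.99, 0.0462 and 0.498 CPM in other enterocytes. In libraries 1 and 2 a UMI was found in 61.4% and 49.6% of Fabp6 enterocytes, in libraries 3 and 4 in 4.2% and 8.33%. The value of library 3 rests on 25 UMIs in 6 cells, 18 of them in 1 cell. Reg1, another lectin of the Reg family, was the gene with the lowest median ratio of all, at 144, 190, 21.2 and 54.9 CPM in Fabp6 enterocytes against 2126, 2151, 1195 and 1248 CPM in other enterocytes. The Reg3, Defa, Cyp3a and H2 genes have close relatives, so how their reads were divided is uncertain.

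**Figure D4:**
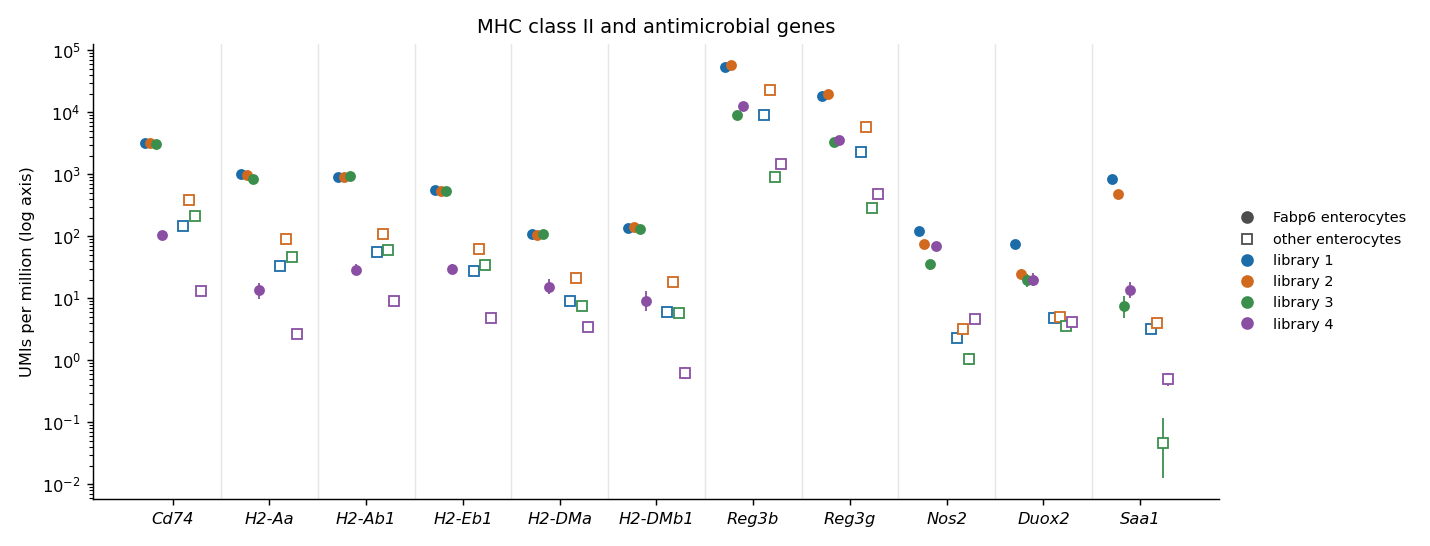
Level (y axis, CPM, log scale) of 6 MHC class II genes and 5 antimicrobial genes in Fabp6 enterocytes (filled circles, left) and other enterocytes (open squares, right); colour is the library and bars are exact 95% Poisson intervals. Class II genes of library 4 lie under the other libraries in both groups, and Reg3b, Reg3g and Saa1 are higher in libraries 1 and 2 than in libraries 3 and 4.

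Among genes of the villus tip, Ada, Nt5e and Slc28a2 of purine handling were lower, 3 of 5 measured. Ada, adenosine deaminase, was at 80.6, 10.4, 114 and 166 CPM in Fabp6 enterocytes against 604, 108, 541 and 403 CPM in other enterocytes. Krt20, a keratin of mature enterocytes, was at 1154 to 1458 CPM against 801 to 1132 CPM. By the summed share of the 6 tip genes, Fabp6 enterocytes fell mostly into the upper tertiles of all enterocytes, with 49, 258 and 298 cells from low to high. The high tertile held 26, 170, 32 and 70 of them in libraries 1 to 4. The low tertile held 6, 21, 14 and 8 of them and its levels are not given. Ada, which counts in this share, was at 142 CPM in Fabp6 enterocytes of the high tertile, against 1656 CPM in its other enterocytes. A tertile therefore need not be the same villus position in both groups. Cd74 in the middle and high tertiles was at 2107 and 2778 CPM in Fabp6 enterocytes, against 162 and 484 CPM in the same tertiles of other enterocytes. Apoa4 was at 2003 and 2330 CPM in Fabp6 enterocytes in these tertiles, against 12084 and 27309 CPM in other enterocytes. With equal weights over the tertiles, 106 genes were higher, 93 of them among the 130, and 138 lower, 119 of them among the 164.

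Gpx2, a glutathione peroxidase that is strong in crypts, was the 1 higher gene of 6 measured crypt and lower villus genes, at 1727, 1119, 868 and 1014 CPM in Fabp6 enterocytes against 280, 535, 199 and 243 CPM in other enterocytes. Olfm4 of crypt cells was at 0.863 to 9.28 CPM against 7.89 to 34.9 CPM, and Lgr5 had 0 UMIs in Fabp6 enterocytes. Of 10 measured genes of mucin and brush border structure, 0 were higher or lower. Above other enterocytes in each library lay 7 of the 10, as did 1843 of all 6464 measured genes. Vil1, villin, was at 1217 to 1340 CPM against 742 to 999 CPM. None of 12 type I interferon genes, 4 butyrophilin-like genes, 5 iron genes and 3 genes of the aryl hydrocarbon receptor was higher or lower. At the background of 2.01% and 2.54%, lists this short would hold few such genes, so these counts of 0 are not read as results.

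Transcripts of other cells were set beside these results. Over 7 goblet markers the summed level was 254 to 714 CPM in Fabp6 enterocytes and 261 to 571 CPM in other enterocytes. Over 7 Paneth markers it was 120 to 394 CPM against 554 to 1677 CPM, lower in each library, and 5 of the 6 measured were lower. The 6 T cell markers summed to 0 to 7.18 CPM against 0.729 to 12.7 CPM. Of 4 tuft markers 3 (Dclk1, Lrmp and Alox5ap) had 0 UMIs. The 3 fibroblast markers summed to 22.1 CPM in Fabp6 enterocytes of library 3 and had 0 UMIs in the other libraries. The 6 enteroendocrine markers summed to 67.9 to 104 CPM against 30.8 to 44.0 CPM. Chga, a gene of the choosing rule, was at 42.6, 55.2, 35.0 and 34.5 CPM in Fabp6 enterocytes, against 2.98, 6.94, 2.69 and 3.61 CPM in other enterocytes. A Chga UMI was found in 50.9% of Fabp6 enterocytes, 7.38% of other enterocytes and 1.98% of T cell barcodes, and thinned to 2000 UMIs in 10.4%, 0.839% and 0.672%. The part of these transcripts in the gene differences was not tested.

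Levels within Fabp6 enterocytes followed Fabp6 itself for some of the ileal genes. From cells at 0.3% to 1% over 1% to 2% and 2% to 4% to cells over 4% (149, 137, 162 and 157 cells), Slc10a2 was at 84.9, 198, 245 and 482 CPM. Fgf15 was at 73.3, 92.4, 122 and 206 CPM, and Suox at 47.1, 78.1, 140 and 238 CPM, so all 3 were higher in each step over the libraries together. In library 3 the steps were uneven, with Fgf15 at 61.0, 38.5, 92.2 and 274 CPM. In single libraries the last bin stood above the first by 11.2-, 5.48-, 5.77- and 2.33-fold for Slc10a2 and by 5.29-, 6.91-, 4.82- and 3.2-fold for Suox. Library 1 held only 19 and 9 cells in the lowest 2 bins.

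Fabp1 and Lct ran the other way over the same bins, Fabp1 being part of the choosing rule. Fabp1 was at 9184, 8914, 6257 and 3105 CPM and Lct at 314, 298, 205 and 109 CPM. Lct was lower over 4% than under 1% in each library, at 0.413, 0.230, 0.297 and 0.390 of its level there. Apoa4 showed no such order, at 3004, 2693, 1368 and 1920.2 CPM, and at 1.07, 0.158, 0.816 and 0.486 of its level in the first bin in libraries 1 to 4. Not all genes with higher levels in Fabp6 enterocytes followed Fabp6. Plb1 in the cells over 4% was at 0.549 of its level in those under 1%, and Cd74 was 1.31, 1.40, 1.24 and 0.366 times as high in libraries 1 to 4. Amn was 0.986 times as high and Chga 0.995 times. Fabp6 counts toward the total of a cell, of which it was at most 12.8%.

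**Figure D5:**
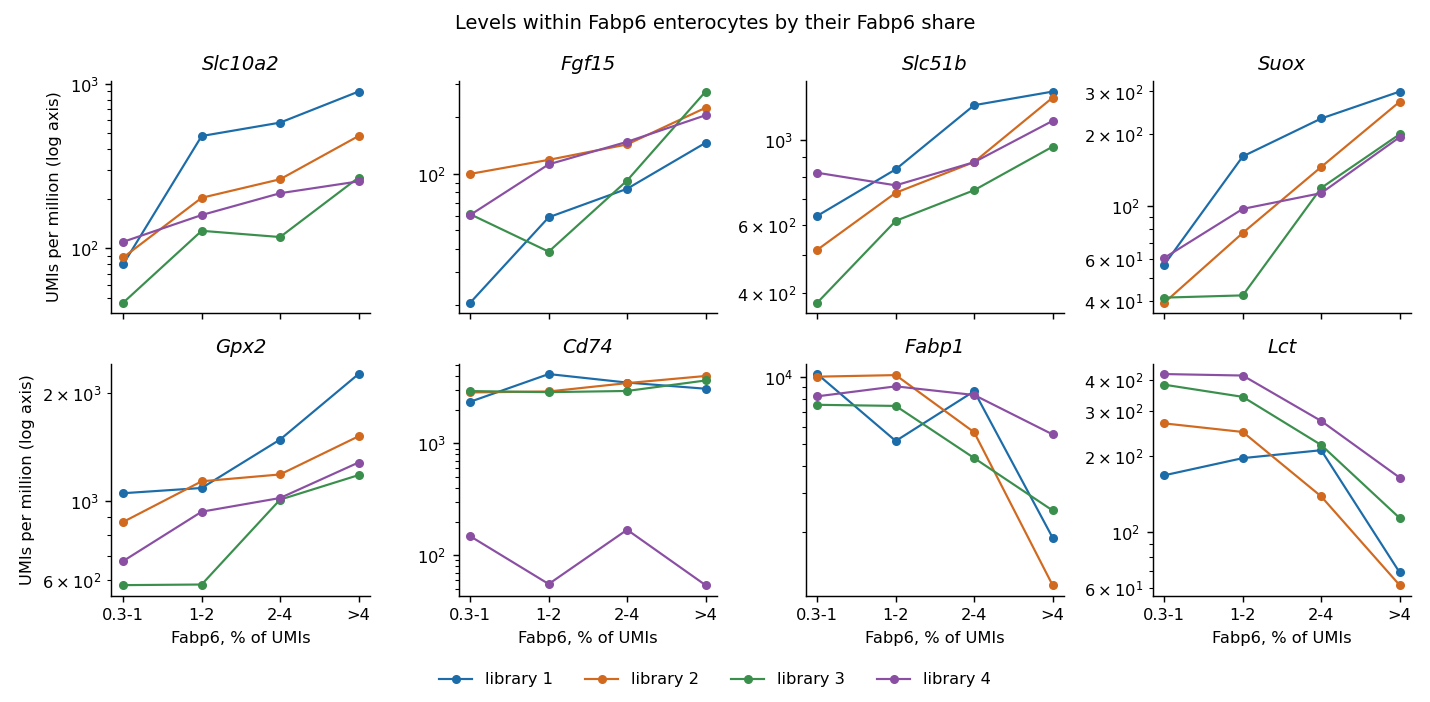
Level (y axis, CPM, log scale) of 8 genes in Fabp6 enterocytes grouped by the Fabp6 share of their UMIs (x axis, percent), 1 line per library. Slc10a2, Fgf15, Slc51b, Suox and Gpx2 are higher in cells over 4% than in cells under 1% in each library, Fabp1 and Lct are lower, and Cd74 is higher in libraries 1 to 3 and lower in library 4.

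Between the libraries, few genes of Fabp6 enterocytes set 1 library apart from the other 3. Of 6347 genes at 10 CPM or more, 39 (0.614%) stood in 1 library at least 2-fold above the other 3 and 36 (0.567%) at least 2-fold under them. This rule is not made for genes with more than 1 library on each side, and it left out Reg3b, Reg3g and Saa1. Genes with such a split were not counted, so the number of all genes that differ between libraries is not known. Library 1 held 33 of the 39, led by Rtp4, Ly6m, Oasl2, Apol9a and Clca4a. Members of the type I interferon list among them were Isg15, Irf7, Ifit1, Oasl2, Stat2, Zbp1, Ddx60 and Xaf1. Rtp4, an interferon-induced chaperone, was at 51.1 CPM in library 1 and 8.08 to 9.20 CPM in the others. Oasl2 was at 108 CPM against 16.7 to 25.4 CPM. Of these 33 genes, 12 also stood apart in the other enterocytes of library 1, where Rtp4 was at 76.7 CPM against 6.99 to 11.6 CPM. Slc10a2, Tmigd1, Duox2 and Slc25a48 were among the remaining 21.

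Library 4 held 19 of the 36 low genes, led by H2-Aa, H2-Ab1, Cd74 and H2-Eb1, and 7 of the 19 were also apart in its other enterocytes. Ubd, a ubiquitin-like gene induced by interferon-gamma, was at 0.288 CPM in Fabp6 enterocytes of library 4 and 17.4 to 40.3 CPM in the others. In library 2 Ada and Cyp3a11 were low, and in library 3 Reg1, G0s2 and Apoc2. Of the 4 low genes of library 2, 3 were also apart in its other enterocytes, and of the 5 of library 3, 0 were. G0s2, an inhibitor of triglyceride breakdown, was at 0.898 CPM in Fabp6 enterocytes of library 3 and 17.4 to 30.8 CPM in the others. Gsdmc4, a gasdermin, was highest in library 3, at 46.4 CPM against 13.5 to 19.3 CPM.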

How the data were processed

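UMI counts per gene and barcode, as deposited by the authors, are whole numbers that were not normalized; the matrix holds 32285 genes. Per the submitters' processing notes, Cell Ranger 6.1.1 and mm10 were used; these sources do not say how libraries were merged or filtered. Per the labels' protocols, libraries used single cell 3' v2 chemistry on DAPI-negative cells.

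From the counts, barcodes were chosen by the limits given in the report (Python 3.11.15, scipy 1.17.1). UMIs were summed per library and group and divided by the group total (CPM). Log2 ratios and calls use CPM + 1 within a library; folds printed beside levels are plain CPM ratios. Poisson and Clopper-Pearson intervals are exact, at 95%. Doublets were kept; as an alternative the 6% of barcodes with the highest Scrublet score (scanpy 1.11.5) were removed per library. Scaling factors came from edgeR 4.0.16. T cell barcodes had a Ptprc UMI and at least 2 UMIs of Cd3d, Cd3e and Cd3g.

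The planned edgeR test of IPA against control was not run, since no library could be tied to a sample. The members and all 25 gene lists were chosen with earlier results of these data known. Named genes are the 4 markers, the 15 highest and 15 lowest ratios, up to 5 genes per library and direction, and list members. The steps were tested on simulated data.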

Additional observations from a re-analysis of the deposited data

Results flagged for a closer look

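Slc10a2 was at 628 CPM in Fabp6 enterocytes of library 1, against 142 to 220 CPM in the other 3 libraries, and its distance from the next value was large for the range of the 4. Of 30 results looked at in this way it was the 1 that stood out, and chance gives about 1 in 20. Library 1 also had the highest Fabp6 share per cell, and Slc10a2 was higher in cells with more Fabp6. In cells at 0.3% to 1% Fabp6, Slc10a2 was at 79.9 CPM in library 1 and 46.6 to 109 CPM in the others, and over 4% at 898 CPM against 255 to 482 CPM. The part of the Fabp6 share in this difference was not tested.

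Of 990 barcodes past the quality limits with Fabp6 at 0.3% or more, 385 failed another limit of the choosing rule and enter no comparison. In 235 of them only Fabp1 and Fabp2 were too low, and in 94 only Chga and Chgb were too high. Their Fabp6 level was fixed by that limit. Slc10a2, which no limit used, was at 204 CPM in the 235 barcodes and 179 CPM in the 94, against 2.45 CPM in other enterocytes.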

How the results depend on the processing

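No paired analysis was possible because the libraries could not be tied to samples, and no diet test or alternative to it was run. Limits are that the 605 cells come from 4 pools whose diet could not be assigned, that 3.13% of enterocytes passed the Fabp6 limit (exact 95% interval 2.89 to 3.38), and that low counts widen ratios of genes near 10 CPM. The share was 4.02% with a Fabp6 limit of 0.1%, 2.36% with 1%, and 2.71% to 3.56% with a library left out. Genes higher, lower and apart in 1 library numbered 130, 164 and 70. They were 68, 76 and 22 with a mean of at least 50 CPM, 85, 92 and 39 with a prior of 10 CPM, 312, 358 and 347 at 1.5-fold, and 38, 24 and 14 at 4-fold. Genes apart were 345 with a mean of at least 1 CPM and 182 with each cell weighted the same. Leaving out a library gave 134 to 168 higher, 176 to 209 lower and 68 to 137 apart; 137 were apart without library 2 and 113 without library 3. The median of the villus tip list turned to 0.29 with at least 50 CPM, where fewer members were measured. Under the other alternatives these counts moved by less than 1.5 times. Without the 6% of highest doublet scores, 129 of the 130 higher and 161 of the 164 lower genes were shared, and with a Fabp6 limit of 1%, 129 and 161.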

Other observations

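The 235 barcodes with Fabp6 but little Fabp1 and Fabp2 (75, 100, 34 and 26 in libraries 1 to 4) carried the bile acid genes beside low levels of other enterocyte genes. Slc10a2 was at 204 CPM in them and 258 CPM in the 605 Fabp6 enterocytes, and Slc51b at 702 and 849 CPM. Fgf15 was at 48.2 and 125 CPM. Brush border and transport genes were far lower, with Enpp7 at 7.91 CPM against 460 CPM, Plb1 at 17.5 against 448 CPM, Lct at 12.1 against 227 CPM and Apoa1 at 1238 against 16550 CPM. Higher in them were Gsdmc4, a gasdermin, at 227 against 23.6 CPM, Fgfbp1, which binds growth factors, at 124 against 9.17 CPM, and Dmbt1, a secreted scavenger receptor, at 565 against 95 CPM. The cyclin gene Ccnd1 was at 86.5 against 17.4 CPM. Their median depth was 26947 UMIs. These genes were picked after their values were seen.

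The 94 barcodes with too much Chga and Chgb were close to Fabp6 enterocytes in ileal genes, with Slc10a2 at 179 against 258 CPM and Fgf15 at 115 against 125 CPM. They held Gip at 349 against 7.87 CPM and Pyy at 105 against 2.60 CPM, both gut hormones, and Neurod1 at 1.34 CPM. Per 100 Chga UMIs they had 4.83 of Chgb, and Fabp6 enterocytes 3.01. Other enterocytes had 30.3, and the 154 barcodes with at least 50 UMIs of the pair had 372.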
